A study of Mus musculus with 7 samples.

Results

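Potassium channel genes were followed in the kidneys of LBR-null and WT mice. They were taken as every gene whose symbol is Kcn, then letters, then a number, which gave 92 of the 24328 lines of the expression tables. The symbols cover 40 voltage-gated alpha subunits, 15 inward rectifiers, 14 two-pore domain channels, 8 channels grouped by symbol as calcium- or sodium-activated and 15 accessory subunits. Of these, 42 were abundant in kidney, with a WT mean of at least 30 normalized counts, and 50 were under that level. A normalized count is a read count divided by a factor that puts libraries of different depth on one scale. The closest genes inside this limit were Kcnj11 at 31.4, Kcnn4 at 31.8 and Kcnj12 at 32.0, and the closest outside it were Kcnd2 at 29.3 and Kcne3 at 28.2.

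Potassium channels let potassium ions cross the cell membrane down their gradient and so set the membrane voltage. In the kidney, basolateral channels recycle the potassium that the sodium pump brings into tubule cells, and apical channels of the distal nephron secrete potassium into urine. Inward rectifiers do most of this work, two-pore domain channels carry background currents, and many voltage-gated channels are best known from neurons and muscle.

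LBR, the lamin B receptor, is a protein of the inner nuclear membrane that binds heterochromatin. The LBR-null mice carried the loss-of-function genotype Lbr ic-J/ic-J, the WT mouse was Lbr+/+, and all were C57BL/6J mice of 4 weeks. Polyadenylated RNA from whole kidney was sequenced in 5 libraries of 3 LBR-null mice (4001, 4002 and 4007) and 2 libraries of 1 WT mouse (4009). Mouse 4002 gave 1 library and each other mouse gave 2, and libraries were averaged within a mouse. The spread between WT mice is therefore unknown, and the tests assume that the WT mouse varies like the LBR-null mice.

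The libraries held 20694016 to 26333284 reads on genes, and 1 read was worth 0.787 to 1.15 normalized counts. Lbr itself stood at 314 to 495 normalized counts in LBR-null and 381 to 416 in WT libraries, so its level does not tell the genotypes apart. All kidney segment markers sought were found, but mouse 4001 stood apart from the other mice. A list of 12 heart muscle genes, chosen after the data were seen, summed to 82811 and 113226 normalized counts in its libraries, against 1793 to 1959 in the other LBR-null libraries and 1634 and 614 in the WT libraries. Mice 4001 and 4007 also had Xist, the RNA of the inactive X chromosome, at 5352 to 10163 normalized counts, against 65.3 in mouse 4002 and 39.4 and 31.7 in WT. The labels give no sex, so values of mouse 4002 alone are given where they turn a direction.

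Among the abundant potassium channel genes, 11 were higher and 16 were lower than WT in all 3 LBR-null mice. The median difference between LBR-null and WT kidneys, on the log2(normalized count + 1) scale, was −0.07, the same as the −0.07 of all 13676 genes with a WT mean of at least 30. The SD of this median over the 3 LBR-null mice was 0.13. Of the 42, 3 were at least 2-fold higher in LBR-null kidneys (Kcnt1, Kcnip2 and Kcnn1), against 4.40% of all genes at that level. Another 8 were at least 2-fold lower (Kcnk5, Kcnd3, Kcne4, Kcnk2, Kcna6, Kcnmb1, Kcnk13 and Kcnn4), which is 19.0% against 7.55% of all genes. In 7 genes all 5 LBR-null libraries lay above both WT libraries (16.7% against 20.3% of all genes), and in 14 all lay below (33.3% against 30.8%). Without mouse 4001, 2 abundant genes were 2-fold higher (background 3.67%) and 6 were 2-fold lower (background 7.83%), with a median of −0.19 against −0.07 over all genes at that level.

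**Figure D1:**
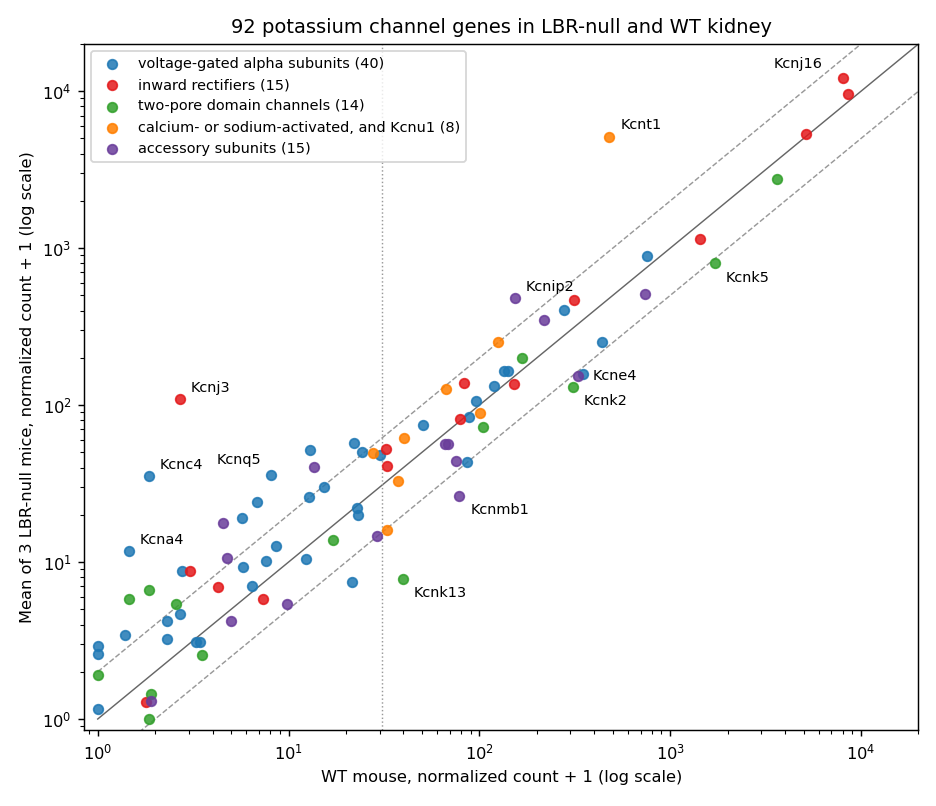
Each point is 1 of the 92 genes, with the WT mouse on the x axis and the mean of 3 LBR-null mice on the y axis, both as normalized count + 1 on log scales and coloured by channel class. The solid line marks equal levels, the dashed lines 2-fold differences and the dotted line the WT mean of 30. Kcnt1 (479 in WT, 5137 in LBR-null) lies far above the line among abundant genes, while Kcnk5 (1714 and 798) and Kcnk13 (38.6 and 6.76) lie below it.

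No potassium channel gene passed limma at an adjusted p under 0.05 and a 2-fold difference, and neither did any other gene (0% of 17283 tested). At an unadjusted p under 0.05, 12 of the 73 channel genes tested were higher (background 10.7%) and 7 were lower (background 8.05%). Of the 73, 10 had a WT mean under 5 and reached the minimum mean of 5 over the mice through the LBR-null group, where they were high. They include 5 of the 12 higher genes, namely Kcnc1, Kcne2, Kcnj6, Kcnc4 and Kcna4. Of the 42 abundant genes, all of which were tested, 2 were higher (background 5.40%) and 6 were lower (background 9.81%) at an unadjusted p under 0.05. The lowest adjusted p was 0.0906, for Kcnt1. On whole reads recovered from the tables, edgeR also called 0 channel genes (0.162% of all genes, with 20 channel genes and 19.2% of all genes at an unadjusted p under 0.05). DESeq2 on the same reads called 8 (6.72% of all genes), with Kcnt1, Kcnip2, Kcns1, Kcnq5 and Kcnc4 higher and Kcnk5, Kcnk2 and Kcnd3 lower. Leaving out mouse 4001, limma called 7 (6.76% of all genes), with Kcnt1 and Kcnc4 higher and Kcnk5, Kcnk2, Kcnk13, Kcnd3 and Kcnh2 lower. With 1 WT mouse and 3 LBR-null mice an exact permutation test of a single gene cannot give a p below 0.25.

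Kcnt1, a sodium-activated potassium channel known from neurons, had the widest difference among the abundant genes. It stood at 2538 and 3220 normalized counts in the libraries of mouse 4001, 4308 in mouse 4002, 7895 and 8551 in mouse 4007, and 492 and 467 in the WT mouse. Every LBR-null library was well above WT, and the LBR-null mice themselves differed widely, with mouse 4007 highest. The difference was 3.28 on the log2 scale with a standard error of 0.55 (adjusted p = 0.0906 from limma), and 3.63 without mouse 4001 (adjusted p = 0.00733). Kcnt1 made up 1.32% to 1.40% of all potassium channel counts in the WT libraries and 4.99% to 20.2% in the LBR-null libraries. It was the only abundant member at least 2-fold higher in each LBR-null mouse.

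The other calcium- or sodium-activated channels were at lower levels. Kcnn1, a small-conductance calcium-activated channel, was at 362 and 392 normalized counts in mouse 4001, 184 in mouse 4002, 209.5 and 183 in mouse 4007, and 129.9 and 118 in WT. All LBR-null libraries were above WT, mouse 4001 most, and the difference was 0.94 on the log2 scale (standard error 0.47, adjusted p = 0.341 from limma). Without mouse 4001 the ratio of means went from 2.04 to 1.54. Kcnn4, an intermediate-conductance channel known from blood cells and epithelia, was at 10.3 and 9.76 in mouse 4001, 19.8 in mouse 4002, 10.2 and 20.1 in mouse 4007, and 22.8 and 40.7 in WT. Its log2 difference was −1.08 (adjusted p = 0.359 from limma) and was −0.62 without WT library 2. Kcnma1, the pore of the large-conductance BK channel that secretes potassium when tubular flow is high, was at 88.1 ± 12.0 (SD, n = 3 mice) against 99.9, and its libraries overlapped. Kcnt2, the sodium-activated relative of Kcnt1, was at 119 in mouse 4001, 67.9 in mouse 4002 and 189 in mouse 4007 against 65.5 in WT, with overlapping libraries. The small-conductance channels Kcnn2 (31.9 ± 6.53 against 36.6) and Kcnn3 (61.0 ± 18.6 against 39.5) also overlapped with WT, as means ± SD of 3 mice. Kcnu1, grouped with these by its symbol but opened by voltage and alkaline pH, was at 48.3 ± 16.7 against 26.8 and overlapped. Of the 7 abundant genes of this class, 2 were 2-fold higher (background at that level 4.40%) and 1 was 2-fold lower (background 7.55%), while without mouse 4001 1 of the 7, Kcnt1, was 2-fold higher and 0 were 2-fold lower.

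Inward rectifiers held most of the potassium channel counts, at 67.5% in both WT libraries, 74.6% and 75.0% in mouse 4001 and 60.0% to 61.6% in the other LBR-null libraries. In normalized counts per kb of exon, the order in WT kidney was Kcnj16 (2034), the two-pore channel Kcnk1 (1586), Kcnj1 (1577), Kcnj15 (1273), Kcnk5 (509.6), Kcnj10 (265), Kcnq1 (244) and Kcne1 (230.4). With 1 WT mouse no spread between mice can be set beside neighbours in that order. Kcnj1 encodes ROMK, the apical channel of the thick ascending limb and the collecting duct that secretes and recycles potassium. It was at 6391 and 7049 normalized counts in mouse 4001, 5427 in mouse 4002, 3848 and 3852 in mouse 4007, and 5079 and 5222 in WT. Mouse 4007 was below WT and the other LBR-null mice were above it, with a log2 difference of 0.01 (standard error 0.36, adjusted p = 0.989 from limma) that was below 0 in some other settings.

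Kcnj10 and Kcnj16 form a basolateral channel of the distal nephron, and Kcnj15 is expressed in proximal tubule. Kcnj10 was at 1255 and 1360 normalized counts in mouse 4001, 1156 in mouse 4002, 911 and 982 in mouse 4007, and 1487 and 1375 in WT. All LBR-null libraries were below WT, some only just, with a log2 difference of −0.34 (standard error 0.27, adjusted p = 0.539 from limma). Its partner Kcnj16 was at 18656 in mouse 4001, 6747 in mouse 4002 and 10820 in mouse 4007 against 8007 in WT, so the groups overlapped and mouse 4002 alone had the opposite sign. Kcnj15 was at 11433, 7742 and 9485 in the same order against 8544, also overlapping and with mouse 4002 alone below WT. Of 7 thick ascending limb markers, 3 lay above and 1 below WT in all LBR-null libraries (background 20.3% and 30.8%), with sums of 93512 to 228971 normalized counts against 102943 and 104803 and no marker at 0. Of 10 proximal tubule markers, 2 lay above and 8 below WT (the same background), with sums of 69363 to 89911 against 151136 and 153191 and no marker at 0. The part of these segments in the channel values was not tested, and in whole kidney fewer cells of a type and less RNA per cell cannot be told apart.

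The ATP-sensitive channel pore of vascular smooth muscle, Kcnj8, was at 561 and 524 normalized counts in mouse 4001, 391 in mouse 4002, 472 and 458 in mouse 4007, and 317 and 306 in WT. All LBR-null libraries were above WT, with a log2 difference of 0.57 (standard error 0.29, adjusted p = 0.355 from limma). Kcnj13, an inward rectifier of low conductance, was at 80.7 ± 19.9 (SD, n = 3 mice) against 78.4, and Kcnj2, which sets resting voltage in muscle, at 135 ± 32.3 against 150.3. Both overlapped, and the exons of Kcnj13 lie over the gene model of another gene for 49.1% of their length. Among the 10 abundant inward rectifiers the libraries did not overlap in 1 higher gene (background 20.3%) and 1 lower gene (background 30.8%), and among the 5 low ones in 1 higher gene (background 25.7%).

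**Figure D2:**
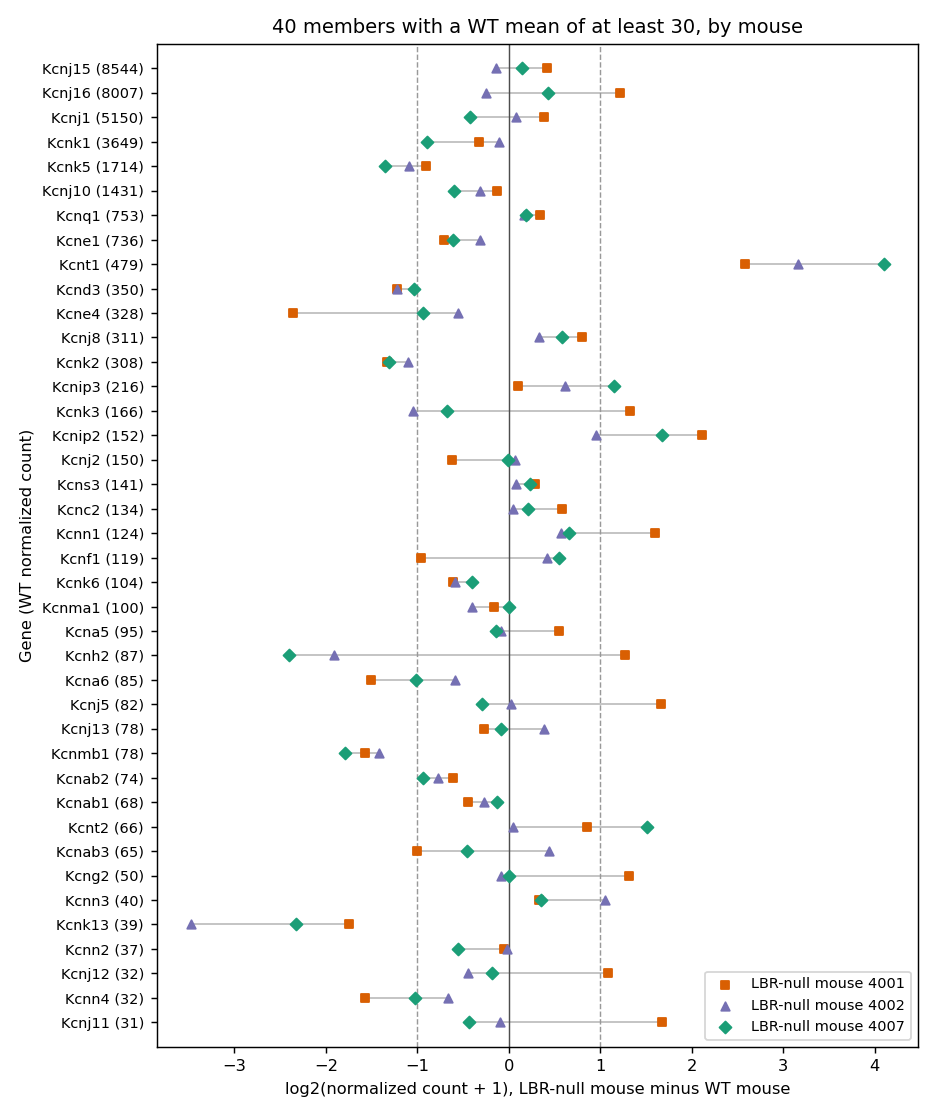
Each row is 1 of 40 abundant genes in order of WT level, and each symbol is the log2(normalized count + 1) of 1 LBR-null mouse minus that of the WT mouse, with dashed lines at 2-fold. The 3 mice lie close together for Kcnk5, Kcnd3, Kcnk2 and Kcnmb1, all below 0, and spread widely for Kcnh2, where mouse 4001 is above 0 and the others below.

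Of 14 two-pore domain channels, 6 were abundant, and in 5 of these all LBR-null libraries lay below WT (83.3%, against 30.8% of all genes at that level). Kcnk5, Kcnk2 and Kcnk13 were at least 2-fold lower (3 of 6, against 7.55%) and none was 2-fold higher, with a median of −0.82 that was −1.03 without mouse 4001, against −0.07 over all abundant genes in both cases. Of the 7 low ones with a WT read, 3 were at least 2-fold higher (42.9%, against 44.3% of all such genes), namely Kcnk7, Kcnk9 and Kcnk10, with 1 to 4 reads each in the WT libraries. Over all 8 low ones, 2, Kcnk15 and Kcnk16, were 2-fold lower (background 11.0%) and rest on 2 reads each in the WT libraries. Kcnk5, a pH-sensitive background channel of proximal tubule, was at 886 and 942 normalized counts in mouse 4001, 807 in mouse 4002, 678 and 665 in mouse 4007, and 1765 and 1664 in WT. Every LBR-null library was well below both WT libraries, and the mice were close to each other. Its log2 difference was −1.11 (standard error 0.27, adjusted p = 0.115 from limma) and −1.22 without mouse 4001 (adjusted p = 0.0254).

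Kcnk2, a channel opened by stretch and lipids, was at 133 and 111 normalized counts in mouse 4001, 144 in mouse 4002, 119 and 129 in mouse 4007, and 259.9 and 356 in WT. The LBR-null mice spanned a narrow range below both WT libraries, with a log2 difference of −1.24 (standard error 0.31, adjusted p = 0.121 from limma). Kcnk13, a background channel known from microglia, was at 9.19 and 12.4 in mouse 4001, 2.58 in mouse 4002, 5.59 and 8.20 in mouse 4007, and 33.9 and 43.4 in WT. Its groups were far apart, with a log2 difference of −2.51 on 40 reads in all LBR-null libraries and 91 in WT (standard error 0.78, adjusted p = 0.162 from limma). Of 8 macrophage markers, 6 lay below WT in all LBR-null libraries (background 30.8%), with sums of 2327 to 2793 against 3838 and 3854 and no marker at 0, and their part in the value of Kcnk13 was not tested. Kcnk1, a weak background channel abundant in the nephron, was at 2757 ± 719 (SD, n = 3 mice) against 3649, and Kcnk6 at 71.6 ± 5.81 against 104, both below WT in every LBR-null library. Their log2 differences were −0.44 and −0.53, with adjusted p = 0.544 and 0.479 from limma.

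**Figure D3:**
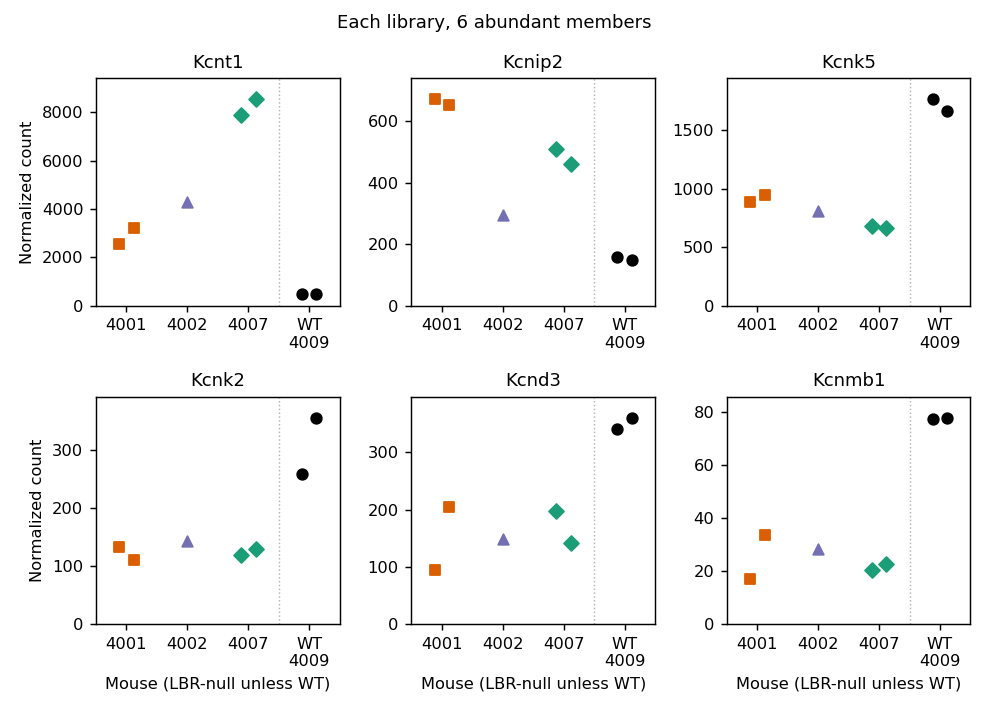
Every library of 6 abundant genes, as normalized counts on axes that start at 0, with the LBR-null mice to the left of the dotted line and WT to the right. The libraries of Kcnt1 and Kcnip2 lie above WT in all LBR-null mice, and those of Kcnk5, Kcnk2, Kcnd3 and Kcnmb1 lie below.

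Of 40 voltage-gated alpha subunits, 11 were abundant. None of the 11 was 2-fold higher (background 4.40%) and 2 were 2-fold lower (18.2% against 7.55%), with all LBR-null libraries above WT in 2 (background 20.3%) and below WT in 3 (background 30.8%). Of the 29 low ones, 26 had a WT read, and 14 of these were at least 2-fold higher (53.8%, against 44.3% of all such genes). Over all 29, 1 was 2-fold lower (background 11.0%). All LBR-null libraries lay above WT in 13 of the 29 (44.8% against 25.7%) and below WT in 1 (background 4.98%). Kcnq1, which with Kcne1 forms an apical channel of proximal tubule, was at 886 and 1027 normalized counts in mouse 4001, 850.3 in mouse 4002, 853 and 862 in mouse 4007, and 781 and 726 in WT. All LBR-null libraries were above WT, by 0.24 on the log2 scale (standard error 0.23, adjusted p = 0.638 from limma). Its partner Kcne1 was at 415 and 484 in mouse 4001, 594 in mouse 4002, 454 and 512 in mouse 4007, and 738 and 735 in WT. Kcne1 was thus below WT in every library, opposite to Kcnq1, by −0.54 (standard error 0.27, adjusted p = 0.347 from limma).

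Kcnd3, which carries transient outward current in heart and brain, was at 95.3 and 205 normalized counts in mouse 4001, 149.6 in mouse 4002, 198 and 142 in mouse 4007, and 340.2 and 360 in WT. The LBR-null libraries varied, but none reached WT, with a log2 difference of −1.16 (standard error 0.30, adjusted p = 0.123 from limma). Kcna6, a Shaker-type channel, was at 42.2 ± 13.4 (SD, n = 3 mice) against 84.9, below WT in all LBR-null libraries. The exons of Kcna6 lie over another gene model for 39.5% of their length. Kcns3 (163 ± 12.1 against 141), Kcnc2 (165 ± 32.3 against 134) and Kcnf1 (132 ± 62.3 against 119) overlapped with WT. So did Kcna5, a channel of smooth and heart muscle, at 139.6 in mouse 4001, 89.4 in mouse 4002 and 86.1 in mouse 4007 against 95.1. For Kcnf1, mouse 4001 at 60.7 was below WT while mouse 4002 at 159.9 and mouse 4007 at 176 were above it.

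Accessory subunits bind the pore proteins and set their gating or their traffic to the membrane. Of the 8 abundant ones, the libraries did not overlap in 2 higher and 4 lower genes (background 20.3% and 30.8%), and of the 7 low ones in 3 higher and 2 lower genes (background 25.7% and 4.98%). Kcnip2, a calcium sensor that binds Kv4 channels such as Kcnd3, was at 672 and 652 normalized counts in mouse 4001, 296 in mouse 4002, 511 and 462 in mouse 4007, and 158 and 147 in WT. All LBR-null libraries were above WT, mouse 4001 most, with a log2 difference of 1.58 (standard error 0.46, adjusted p = 0.147 from limma). Its relative Kcnip3 was at 232 in mouse 4001, 331 in mouse 4002 and 482 in mouse 4007 against 216, with a log2 difference of 0.62 (adjusted p = 0.489 from limma). Kcnd3 and its partner Kcnip2 thus lay on opposite sides of WT in all LBR-null libraries.

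Kcnmb1 encodes the beta subunit that the BK channel has in vascular smooth muscle. It was at 17.2 and 33.7 normalized counts in mouse 4001, 28.4 in mouse 4002, 20.5 and 22.8 in mouse 4007, and 77.2 and 77.8 in WT. The 3 LBR-null mice were close to each other, with a mean that was 0.325 of WT and a log2 difference of −1.59 (standard error 0.44, adjusted p = 0.135 from limma). Of 7 smooth muscle and pericyte markers, 4 lay below WT in all LBR-null libraries (background 30.8%) and 3, Rgs5, Cspg4 and Cnn1, overlapped, with sums of 6945 to 9053 against 13837 and 14039 and no marker at 0. Their part in the value of Kcnmb1 was not tested. Of the other BK beta subunits, Kcnmb2 was at 4.43 ± 1.30 (SD, n = 3 mice) against 8.85 and below WT in all LBR-null libraries, with a log2 difference of −0.89 (adjusted p = 0.496 from limma). Kcnmb3 was at 9.68 ± 1.88 against 3.78, on the other side of WT in all LBR-null libraries (1.14 on the log2 scale). Kcnmb4 had 2 reads in the WT and 2 in the LBR-null libraries. Kcnab2, a beta subunit of Shaker channels, was at 43.1 ± 4.90 (SD, n = 3 mice) against 74.0, below WT in all LBR-null libraries. Kcnab1 (55.6 ± 6.31 against 67.6) and Kcnab3 (55.8 ± 29.4 against 64.8) overlapped.

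In 6 of the 73 channel genes with a mean of at least 5, both libraries of mouse 4001 were at least 2-fold above every other library, LBR-null or WT, against 1.64% of all genes. They were Kcnj3, Kcnj5, Kcnh2, Kcnk3, Kcnj11 and Kcng2. Kcnj3 and Kcnj5 form the channel by which the vagus nerve slows the heart, Kcnh2 carries a repolarizing current of heart muscle, and Kcnj11 is an ATP-sensitive channel of heart and pancreas. Kcnj3 was at 333 and 288 normalized counts in mouse 4001, 5.16 in mouse 4002, 8.38 and 5.47 in mouse 4007, and 1.57 and 1.81 in WT. Mouse 4001 alone was high, at 44.9 times the next mouse. Kcnj5 was at 262 and 263 in mouse 4001, 83.4 in mouse 4002, 61.5 and 72.0 in mouse 4007, and 77.2 and 86.8 in WT. Away from mouse 4001 its groups overlapped.

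Kcnh2 was at 220.5 and 202 normalized counts in mouse 4001, 22.4 in mouse 4002, 11.2 and 20.1 in mouse 4007, and 97.6 and 76.0 in WT. It was thus above WT in mouse 4001 and far below WT in the other LBR-null mice, with a log2 difference of −1.01 (standard error 1.35, adjusted p = 0.731 from limma) that became −2.16 without mouse 4001 (adjusted p = 0.0369). Kcnk3, an acid-sensitive background channel, was at 446 and 388 in mouse 4001, 80.0 in mouse 4002, 116 and 90.2 in mouse 4007, and 182 and 151 in WT. Its log2 difference went from −0.14 to −0.87 without mouse 4001 (adjusted p = 0.954 and 0.128 from limma). All 12 heart muscle genes were higher in both libraries of mouse 4001 than elsewhere, and the part of heart muscle RNA in these channel values was not tested. Kcnj11 was at 94.2 and 111 in mouse 4001 and 21.4 to 33.9 in all other libraries, and Kcng2, a silent subunit, at 121 and 128 against 41.9 to 57.4. Kcnj12, a muscle inward rectifier, was at 83.8 and 53.2 in mouse 4001 and 22.8 to 38.6 elsewhere. Without mouse 4001 the log2 differences of Kcnj11, Kcng2 and Kcnj12 were −0.27, −0.04 and −0.31.

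The same mouse was low in 2 genes, Kcne4 and Kcne3, whose libraries were at least 2-fold below all others (0.903% of all genes). Kcne4, which inhibits several voltage-gated channels, was at 54.0 and 71.9 normalized counts in mouse 4001, 222 in mouse 4002, 171 and 170.4 in mouse 4007, and 325 and 330.2 in WT. All LBR-null libraries were below WT, and the log2 difference went from −1.29 to −0.75 without mouse 4001 (adjusted p = 0.370 and 0.126 from limma).

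**Figure D4:**
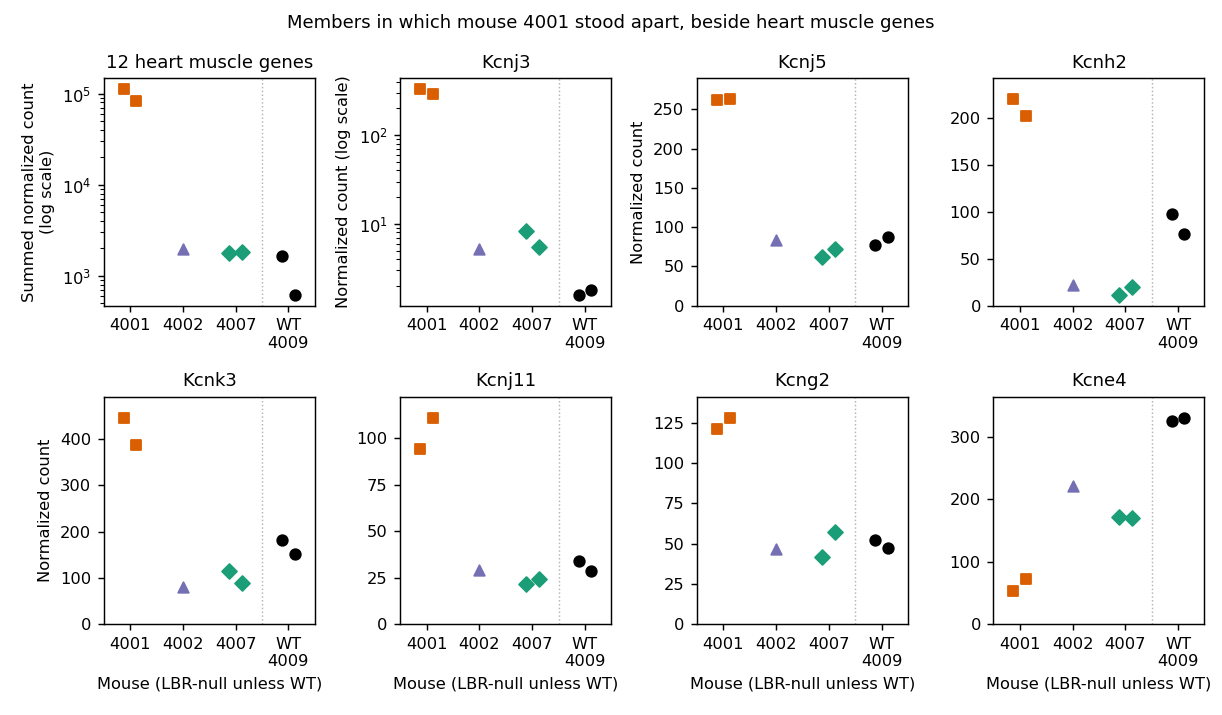
Every library of the 6 genes with high values in mouse 4001 and of Kcne4 with low ones, beside the sum of 12 heart muscle genes; the sum and Kcnj3 are on log axes, the rest on axes that start at 0. Mouse 4001 stands at 82811 and 113226 for the heart muscle sum and at 333 and 288 for Kcnj3, and no other mouse comes near.

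The 50 genes under a WT mean of 30 had a higher median in LBR-null kidneys, as did all genes of that level. Their median log2 difference was 0.72 against 0.49 over all 7792 genes under the limit, and 0.62 with the genes at 0 in WT set to their bound. The SD of the median over the 3 mice was 0.37. Of the 50, 26 were at least 2-fold higher, which is 52.0% against 54.8% of all such genes, and 6 were at least 2-fold lower (background 11.0%). Of the 26, 4 had no WT read, so that no fold can be given for them, and 6 had 1 to 3. Counting genes with a WT read alone, 22 of 46 were 2-fold higher (47.8%, against 44.3% of all such genes). All LBR-null libraries lay above WT in 19 (38.0% against 25.7%) and below WT in 4 (background 4.98%). The limit used the WT value, which is one side of this comparison. When the limit was set on the mean of the 4 mice, 17 of 41 low genes with a WT read were 2-fold higher (41.5%, against 40.4% of all such genes).

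Several of these low genes are known from neurons. Kcna2, a Shaker-type channel of axons, was at 66.6 and 64.8 normalized counts in mouse 4001, 40.4 in mouse 4002, 67.1 and 56.5 in mouse 4007, and 21.3 and 20.8 in WT. Kcns1, a silent subunit that modifies Kv2 channels, was at 54.0 and 57.7, 59.3, 39.1 and 35.5 in the LBR-null libraries in that order, against 10.2 and 13.6 in WT. In both genes the lowest LBR-null library was clearly above WT, with log2 differences of 1.34 and 1.98 (standard errors 0.47 and 0.48, adjusted p = 0.198 and 0.115 from limma). Kcnq5, a subunit of the M current, was at 43.6 and 39.9 in mouse 4001, 33.5 in mouse 4002, 28.9 and 29.2 in mouse 4007, and 7.87 and 6.33 in WT. The log2 difference of Kcnq5 was 2.13 (standard error 0.48, adjusted p = 0.114 from limma). Kcnip4, a relative of Kcnip2, was at 39.3 ± 1.07 (SD, n = 3 mice) against 12.6, with the mice almost equal.

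Kcnc4, a rapidly inactivating (A-type) channel of the Kv3 group, was near the limit of detection in WT, with 1 read in each library (0.787 and 0.905 normalized counts). It was at 72.3 and 31.1 in mouse 4001, 15.5 in mouse 4002, and 41.9 and 29.2 in mouse 4007. The ratio of pooled reads, 193 in LBR-null against 2 in WT, was 43.0 after scaling, with an exact 95% interval for counting error alone of 11.7 to 358. Kcna4 had 62 reads against 1, a ratio of 27.6 with an interval of 4.78 to 1108. Their log2 differences were 4.10 and 2.99, and these depend on the count of 1 added before taking logs. The 4 genes with no read in WT, Kcna3, Kcnh6, Kcnk18 and Kcna10, had 10, 9, 5 and 1 reads over the 5 LBR-null libraries, and their libraries overlapped with WT.

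Kcna7 (23.2 ± 10.2 against 5.86), Kcnc1 (18.0 ± 4.54 against 4.68), Kcnv1 (7.82 ± 3.38 against 1.75) and Kcne2 (16.8 ± 1.34 against 3.56) were also higher in every LBR-null library, as means ± SD of 3 mice. So was Kcna1, at 66.4 in mouse 4001, 39.6 in mouse 4002 and 41.1 in mouse 4007 against 23.2. Kcne2, an accessory subunit known from stomach acid secretion and heart, differed by 1.96 on the log2 scale, with 8 reads in the WT libraries. This value was 1.28 without WT library 1 and 3.31 without WT library 2. Lower in every library were Kcng4 (6.44 ± 2.89 against 20.6) and Kcne3 (13.7 ± 7.08 against 28.2), whose log2 difference went from −1.14 to −0.64 without mouse 4001. Of 8 neuron markers, 7 were under a WT mean of 30, and 4 of these lay above WT in all LBR-null libraries (background 25.7%), with sums of 103 to 132 normalized counts against 53.4 and 74.8, and Th was at 0 in WT. Their part in the low channel genes was not tested. The remaining 33 low genes, at 0 to 29.3 normalized counts in WT and 0 to 48.3 in LBR-null kidneys, had log2 differences of −0.88 to 1.89. Their libraries overlapped in 26, lay above WT in 6 (background 25.7%) and lay below WT in 1 (background 4.98%). That 1 is Kcnk16, with 2 reads in the WT and 0 in the LBR-null libraries. The naming rule had already taken out 15 low genes whose libraries did not overlap. Selection thus lowered these counts, and they cannot be read against that background.

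**Figure D5:**
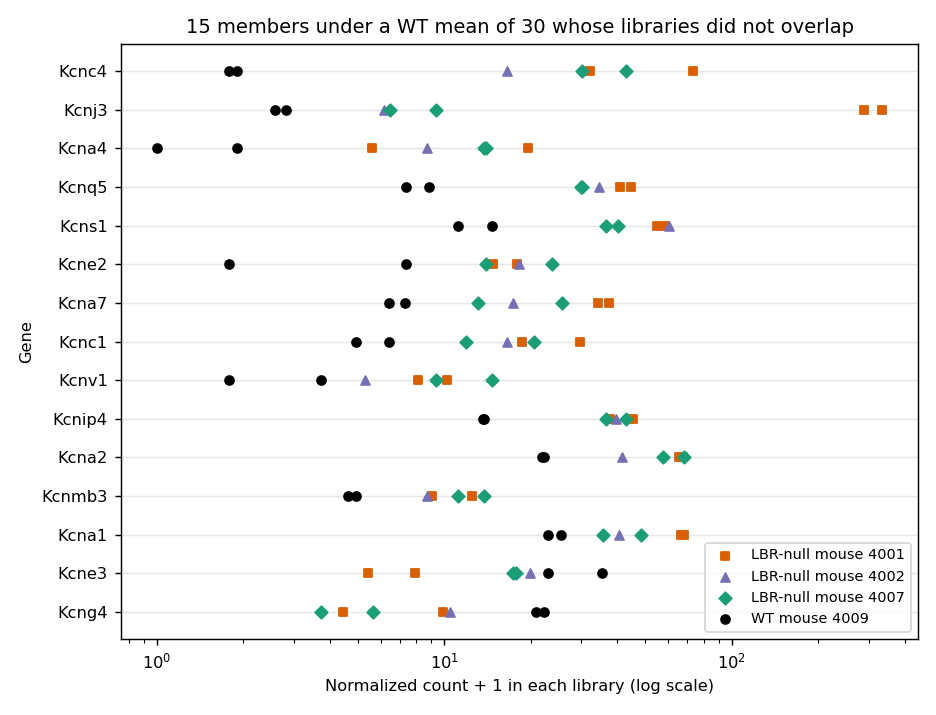
Each row is 1 of 15 genes under a WT mean of 30 whose LBR-null and WT libraries did not overlap and whose log2 difference was at least 1 in size, with every library as normalized count + 1 on a log axis. The WT points of Kcnc4 (0.787 and 0.905) and Kcna4 lie at the left edge, where 1 read decides the level, while Kcna2 and Kcnip4 rest on 50 and 30 WT reads.

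Because the study classes genes by CpG islands, stretches rich in the dinucleotide CpG at gene starts, the starts of the channel genes were read from the mm9 sequence. A start was called CpG-rich when a window of 201 bases within 500 bases of it had at least 50% GC and an observed CpG count over 0.6 of that expected. By this rule 68 of 92 channel genes (73.9%) had a CpG-rich start, against 70.2% of 19165 genes with a coding gene model. A gene was counted if any of its coding transcripts had such a start. The study also required regions bound by CxxC in an experiment, so these classes differ from its CpG island classes. The shares below are therefore no test of the study's classes. Of the abundant channel genes 71.4% had one, against 89.3% of all genes at that level. Among the low channel genes with a WT read, 21 of 36 with a CpG-rich start were 2-fold higher (58.3%, background 44.0%), and 1 of 10 without one, Kcnmb3 (background 46.3%). The 200 bases before the start of the transcript with the longest coding sequence are shown for 4 genes, 5′ to 3′ with each CpG in capitals, a pair higher in LBR-null kidneys with CpG-rich starts, Kcnt1 and Kcnc4, and a pair lower in LBR-null kidneys with no such start, Kcnmb1 and Kcnn4. They lie in mm9 at chr2:25733193-25733392 on the plus strand, chr3:107261817-107262016 on the minus strand, chr11:33862813-33863012 on the plus strand and chr7:25155082-25155281 on the plus strand. For Kcnt1 this start lies 14.1 kb inside the gene model, whose first transcript starts further upstream, and for the others it is the 5′ end of the model.
Kcnt1: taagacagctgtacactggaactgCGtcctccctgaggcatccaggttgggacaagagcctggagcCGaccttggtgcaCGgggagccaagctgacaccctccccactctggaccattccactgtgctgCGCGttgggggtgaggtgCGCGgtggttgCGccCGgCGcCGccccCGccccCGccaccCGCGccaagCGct
Kcnc4: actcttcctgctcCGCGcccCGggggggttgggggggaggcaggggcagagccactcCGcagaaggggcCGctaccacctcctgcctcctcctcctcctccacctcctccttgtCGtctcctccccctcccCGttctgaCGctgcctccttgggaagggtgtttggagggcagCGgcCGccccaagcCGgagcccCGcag
Kcnmb1: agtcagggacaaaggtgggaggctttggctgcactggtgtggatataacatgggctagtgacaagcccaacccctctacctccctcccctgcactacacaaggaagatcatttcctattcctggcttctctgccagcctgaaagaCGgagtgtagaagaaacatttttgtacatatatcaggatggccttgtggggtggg
Kcnn4: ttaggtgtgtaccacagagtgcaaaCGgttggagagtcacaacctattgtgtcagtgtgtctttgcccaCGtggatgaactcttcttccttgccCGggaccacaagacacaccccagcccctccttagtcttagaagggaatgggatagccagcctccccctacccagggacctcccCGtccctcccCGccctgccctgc
The windows hold 16, 12, 1 and 5 CpG in that order, against 23.4, 25.0, 13.0 and 16.3 expected from their C and G content. Over all 92 genes, this window held 0 to 34 CpG in genes with a CpG-rich start and 0 to 8 in the others. The 4 genes were picked by direction and start and do not stand for the family. Of the 8 abundant genes at least 2-fold lower, Kcnk5, Kcnd3, Kcnk2, Kcna6 and Kcnk13 had CpG-rich starts. They are 5 of 30 abundant genes with such a start (16.7%, background 5.89%). Of the 12 abundant genes without one, 3 were 2-fold lower (25.0%, background 23.0%).

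Potassium channels act with other transport genes, and 34 partners were listed (pumps, chloride channels, cotransporters, sodium channel subunits, kinases and channel-binding proteins). Of the 31 abundant ones, all LBR-null libraries were above WT in 12 (38.7% against 20.3%) and below in 5 (16.1% against 30.8%), with a median log2 difference of 0.14, or 0.08 without mouse 4001. No partner passed limma (adjusted p under 0.05). Without adjustment 3 higher and 2 lower partners were under 0.05, all among the 31 abundant ones (background at that level 5.40% and 9.81%). edgeR called 0 (background 0.162%) and DESeq2 called 3 (background 6.72%). Scnn1a, the alpha subunit of the epithelial sodium channel whose current drives potassium secretion, was at 7520 in mouse 4001, 4707 in mouse 4002 and 4711 in mouse 4007 against 2299 in WT. It was above WT in all LBR-null libraries, with a log2 difference of 1.26 (standard error 0.35, adjusted p = 0.139 from limma). Of 3 BK auxiliary genes, Lrrc55 and Lrrc52 were lower, Lrrc55 at 8.01, 2.58 and 3.25 against 74.6 and Lrrc52 at 18.6, 5.16 and 15.2 against 39.7. Their log2 differences were −3.87 and −1.70 (standard errors 0.70 and 0.76, adjusted p = 0.0942 and 0.293 from limma). Lrrc26 overlapped with WT, at 7.70, 43.0 and 23.9 against 30.6, with a log2 difference of −0.57 (adjusted p = 0.773 from limma). Without mouse 4001 the log2 differences of Scnn1a, Lrrc55, Lrrc52 and Lrrc26 were 1.03, −4.28, −2.03 and 0.07.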

How the data were processed

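Kidney RNA of 4 C57BL/6J mice was sequenced with poly(A) selection as 150 bp paired-end reads. Per the study's methods and the submitters' processing notes, reads were mapped to the mm9 genome by the authors (STAR 2.6.0). The deposited signal values are read counts per gene symbol that the authors divided by a size factor of DESeq2 1.25.1. The counting program, its annotation and its use of strand are not given in the sources used here.

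All values (100.0%) were whole multiples of 1 read within 0.01 read, so reads could be recovered. The files hold 24328 lines, 2 symbols appear on 2 lines each, and no line lacked a name. Libraries were averaged within a mouse (3 LBR-null, 1 WT), since 2 libraries of a mouse are not separate animals. The test was limma 3.58.1 with a mean trend on log2(normalized count + 1), over genes whose 4-mouse mean reached 5, with Benjamini-Hochberg adjustment over 17283 genes and 2 residual degrees of freedom. edgeR 4.0.16 (quasi-likelihood) and DESeq2 1.42.0 on recovered reads summed per mouse were alternatives in R 4.3.3. DESeq2 gave no adjusted p for 6 of the channel genes. On simulated data the limma step was checked before use. Other alternatives were scaling, pseudocounts of 0.5 and 5, low-count filters, each mouse or WT library left out, mouse 4002 alone and other limits of abundance.

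Named genes are all channel genes with a WT mean of at least 30, the lower ones with a mean of at least 5, non-overlapping libraries and a log2 difference of at least 1 in size, and a list of renal channels. Partner genes are named by the last 2 of these conditions. Other names were chosen after their values were seen. A few genes that these rules name are not reported here, though the counts include them. The members, lists and rules were chosen with earlier results of these data known. Gene models are those of GENCODE vM1 on NCBIM37 (mm9), where all 92 genes were found and 10 share exon sequence with another gene model. Intervals and limits of 3 reads cover counting error only.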

Additional observations from a re-analysis of the deposited data

Results flagged for a closer look

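In 59 named potassium channel genes the 5 LBR-null libraries were searched for a library far from the others, of which chance marks about 1 in 20, and 2 were found. Kcnq1 stood at 1027 normalized counts in library 2 of mouse 4001, against 850.3 to 886 in the other LBR-null libraries. Kcnmb4 stood at 1.82 normalized counts, 2 reads, in library 2 of mouse 4007, while no other LBR-null library had a read of it.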

How the results depend on the processing

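No paired analysis was possible because the repeat numbers in the sample titles count libraries of 1 mouse and link no LBR-null mouse to the WT mouse. The limits are the single WT mouse and mouse 4001, which stood apart.

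The count of channel genes past the test was 0 with limma and edgeR and 8 with DESeq2, and between 0 and 7 when 1 mouse or WT library was left out (7 without mouse 4001, 4 without mouse 4002, which are Kcnip2, Kcnt1, Kcna4 and Kcnc4). With a minimum mean of 30, 5 channel genes were higher at an unadjusted p under 0.05. The number of abundant genes 2-fold higher was 2 to 5 with a mouse or WT library left out (5 without mouse 4002 and 5 without mouse 4007) and 8 when abundance was set by the mean of the 4 mice, where the median log2 difference of abundant genes was 0.14. Non-overlapping higher abundant genes numbered 9 to 11 with 1 LBR-null mouse left out, a count that fewer libraries cannot lower. Without mouse 4001 it was 9 of 42, against 4084 of all 13676 genes at that level. Most counts in this paragraph are given without a share over all genes and show dependence on processing only. Adding 5 normalized counts before taking ratios left 10 low genes 2-fold higher and 1 lower. Counting genes with a WT read alone, an alternative chosen after the data were seen, left 22 low genes 2-fold higher and 6 lower. With the limit at a WT mean of 100, 4 abundant and 10 low genes were 2-fold lower.

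Signs turned in small differences. Under TMM scaling the log2 differences of Kcnj1 and Kcnj13 were −0.02 and −0.02. That of Kcnk3 was 0.23 with edgeR and 0.23 with DESeq2. Mouse 4002 alone gave −0.14 for Kcnj15, −0.25 for Kcnj16, 0.07 for Kcnj2, −0.09 for Kcna5, 0.44 for Kcnab3, −0.09 for Kcng2, −0.44 for Kcnj12 and −0.10 for Kcnj11. Without mouse 4001 it was −0.17 for Kcnj1, 0.03 for Kcnj2, −0.12 for Kcna5, −0.13 for Kcnj5, −0.04 for Kcng2, −0.31 for Kcnj12 and −0.27 for Kcnj11. Without mouse 4002 it was −0.02 for Kcnj1, 0.32 for Kcnk3 and −0.18 for Kcnj13, and without mouse 4007 it was 0.13 for Kcnk3. Without WT library 1 it was −0.01 for Kcnj1 and −0.02 for Kcnj13, and without WT library 2 it was −0.11 for Kcnj12. The cause was not tested.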

Other observations

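The neighbours of Kcnt1 on chromosome 2 were looked up after its values were seen. Of 8 listed genes within 100 kb, 4 were at 0 in all libraries. Sohlh1, a transcription factor of early germ cells whose gene model lies 16.5 kb upstream of the whole gene model of Kcnt1 on the other strand, had no read in WT and 6.88 to 18.6 normalized counts in every LBR-null library. Its mean, 12.8 ± 5.15 (SD, n = 3 mice), was at least 10.1-fold higher than a limit of 3 reads over the WT libraries. Glt6d1, 47.9 kb away on the same side, also had no read in WT and stood at 4.30 to 15.1 in LBR-null libraries, at least 6.91-fold above that limit. Higher values are common at this level. Of all 7792 genes under a WT mean of 30, 6323 had a WT read, and 54.8% of the 7792 were 2-fold higher. Whether these neighbours differ from other such genes was not tested. On the other side, Camsap1, 8.56 kb away, was at 682 ± 102 against 809.9 and Ubac1, 80.3 kb away, at 1467 ± 295 against 1244 (SD, n = 3 mice).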
